A study of Mus musculus with 18 samples.

Results

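The cytosolic ribosomal protein genes encode the protein parts of the ribosome that works in the cytoplasm. They were taken by name from a table of gene expression in cultured mouse testes: protein-coding genes with a symbol beginning in Rpl or Rps and a number, together with Rpsa and the stalk genes Rplp0, Rplp1 and Rplp2, without pseudogenes and without the S6 kinase genes. The name was held by 84 genes of the 22657 in the table, and 81 of them reached 1 FPKM in at least 3 of the 18 libraries and are the members described here. FPKM is the number of fragments counted for a gene, scaled by its length and by the number of mapped fragments in the library. Of the 81 members, 50 belong to the large and 31 to the small subunit, and they lie on 19 chromosomes, 4 of them on the X chromosome. The 3 genes that failed the minimum were Rpl3l at a mean of 0.199 FPKM, Rps18 at 0.5 and Rpl32l at 0.0872. Rps18 has 6 annotated near-identical copies, none of them in the table. Reads shared with such copies may affect the level listed for Rps18, which is therefore uncertain.

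The samples were testes of ICR mice, kept for 48 h in DMEM/F12 medium with 10% serum, with 3 libraries in each of 6 groups. Mice of groups B0, BA10 and BA50 had received busulfan, an alkylating drug toxic to spermatogonia, once at 3 weeks of age. The dose was 40 µg per g of body weight, and their testes were taken 2 weeks later. Mice of groups A0, A10 and A50 received none, and their testes were taken at the matching age. The culture medium held no alginate oligosaccharide (AOS, short chains cut from the alginate of brown algae) in A0 and B0, 10 µg/mL in A10 and BA10, and 50 µg/mL in A50 and BA50. Each library was therefore bulk RNA of whole testis tissue that still held germ cells and somatic cells, and the labels do not say which testes or animals entered which library. The labels give the AOS dose per mL of medium, while the design text gives it per kg of body weight. The paper also gives the dose of the cultures per mL, and uses the dose per kg for its separate experiment in living mice.

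A cytosolic ribosome holds a copy of nearly every member, and most cells make the proteins in matched amounts, so their messages are among the most abundant in any tissue. Their translation is held in common by a pyrimidine-rich start of the message that answers to the mTOR kinase. The testis is unusual in also using paralogs, copies of a parent gene elsewhere in the genome. The X chromosome is silenced during meiosis in spermatocytes, and autosomal copies such as Rpl10l and Rpl39l are expressed in germ cells while their parents Rpl10 and Rpl39 lie on the X chromosome. RPL10 sits near the site of peptide bond formation, and RPL39 is a small protein of the tunnel through which the new chain leaves the ribosome.

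The coding sequences of the germ-cell paralogs and their parents show how far reads of one can be told from reads of the other. Rpl39l lies at chr16:10170226-10174911 on the plus strand and has its coding sequence in 1 exon, whereas Rpl39 lies at chrX:37082520-37085402 on the minus strand with coding sequence in 3 exons (GENCODE M21, GRCm38). Both coding sequences have 156 bases, of which 23 differ, an identity of 85.3%, and the longest run of identical bases is 38. They are given whole, with the bases that differ in capitals.
Rpl39: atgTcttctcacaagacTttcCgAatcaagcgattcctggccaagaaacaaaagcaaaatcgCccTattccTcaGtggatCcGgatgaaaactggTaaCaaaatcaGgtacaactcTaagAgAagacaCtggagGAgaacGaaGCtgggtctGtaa
Rpl39l: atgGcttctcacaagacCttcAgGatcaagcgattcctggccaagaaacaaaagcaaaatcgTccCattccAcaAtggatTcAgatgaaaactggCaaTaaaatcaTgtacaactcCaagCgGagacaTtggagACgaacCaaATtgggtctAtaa

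Rpl10l lies at chr12:66283379-66284401 on the minus strand with coding sequence in 1 exon, and Rpl10 at chrX:74270812-74273135 on the plus strand with coding sequence in 6 exons of the same annotation. Both coding sequences have 645 bases with an identity of 84.8%. The first 240 bases of each are shown because their 41 differences, in capitals, fall mostly in the last base of a codon and recur along the whole stretch.
Rpl10: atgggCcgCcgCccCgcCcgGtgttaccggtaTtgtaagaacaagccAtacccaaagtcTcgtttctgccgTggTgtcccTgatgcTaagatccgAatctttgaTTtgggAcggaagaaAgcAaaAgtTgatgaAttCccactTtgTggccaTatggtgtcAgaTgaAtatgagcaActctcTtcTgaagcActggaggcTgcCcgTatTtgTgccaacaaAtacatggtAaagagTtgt
Rpl10l: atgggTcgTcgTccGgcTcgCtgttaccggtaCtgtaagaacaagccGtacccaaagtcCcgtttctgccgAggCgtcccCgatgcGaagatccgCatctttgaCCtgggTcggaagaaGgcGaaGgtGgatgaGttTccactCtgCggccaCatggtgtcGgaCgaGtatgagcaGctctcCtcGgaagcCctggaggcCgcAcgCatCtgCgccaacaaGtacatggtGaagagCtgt

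The longest run that Rpl10 and Rpl10l share is 23 bases. The other paralogs were less like their parents, except Rpl36al and Rpl36a at 87.9% identity, and ranged from 73.3% for Rpl3l and Rpl3 through 68.2% for Rpl22l1 and Rpl22 and 62.3% for Rps27l and Rps27 to 54.9% for Rpl7l1 and Rpl7.

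The table gave 14291 to 15040 genes at 1 FPKM or more per library, and 15790 genes that passed the minimum were tested. It holds no read counts, so the depth of each library is unknown. A group of 4 libraries stood apart from the other 14: A0 replicate 2, A10 replicate 3, B0 replicate 1 and BA50 replicate 1. Of the 15790 genes, 198 were higher in all 4 than in every other library and 146 were lower. Of the members 11 were higher in all 4, among them Rpl3, Rps2 and Rps28, and none of the 81 members was lower. These libraries were picked after their values were seen, they come from 4 groups, and the median of the members in each contrast is given with and without them.

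Most members were expressed at high and similar levels in every library. The median of the 81 mean levels was 457 FPKM, against 10.0 FPKM over all tested genes, and 68 members had a mean of at least 100 FPKM and 36 of at least 500 FPKM. The small subunit had a median of 479 FPKM and the large subunit 405 FPKM. In 80 members all 18 libraries were at or above 1 FPKM, and the exception was Rpl10 in A50 replicate 1 at 0.73 FPKM. Levels are per length of the gene and can be set side by side, but they depend on how reads shared with copies were assigned.

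The highest mean was that of Rpl41, which encodes the shortest ribosomal protein, at 1296 FPKM with a range of 1104 to 1688. It was followed by Rpl23a, a protein at the mouth of the exit tunnel, at 1145 FPKM with a range of 836 to 1750. The ranges of these genes overlapped. Within a library, Rpl41 was above Rpl23a in all but A0 replicate 2 (1372 against 1382 FPKM) and B0 replicate 1 (1688 against 1750 FPKM). The 3 stalk genes, whose products bind the elongation factors, were all among the abundant members: Rplp1 had a mean of 975 FPKM, Rplp0 of 835 FPKM and Rplp2 of 777 FPKM. Rpl32 completed the first 5 at 815 FPKM, within the ranges of its neighbours.

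**Figure D1:**
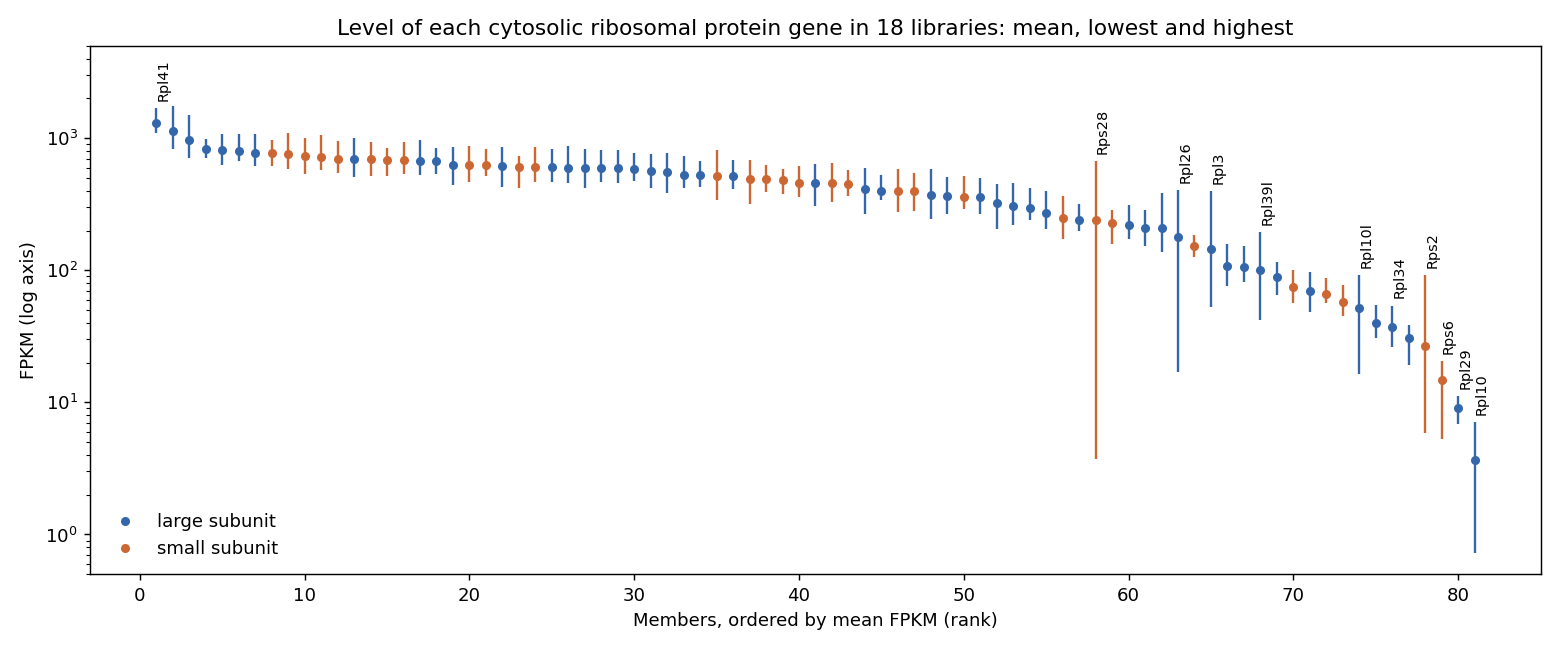
FPKM on a log axis for the 81 members ordered by mean, with a point for the mean and a line from the lowest to the highest of 18 libraries, coloured by subunit. Most lines are short and lie above 100 FPKM; the long lines include those of Rps28, Rpl26, Rps2 and Rpl3, and Rpl10 is the lowest at a mean of 3.69 FPKM.

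At the other end, 13 members had a mean under 100 FPKM and 7 under 50 FPKM. The lowest 5 were Rpl10 at 3.69 FPKM, Rpl29 at 9.04 FPKM, Rps6 at 14.7 FPKM, Rps2 at 26.7 FPKM and Rpl7l1 at 30.8 FPKM. Several of these have near-identical copies in the genome.

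For Rps6, the ribosomal protein phosphorylated by S6 kinase, the whole coding sequence was 100% identical to that of Rps6-ps4, a gene annotated as a transcribed pseudogene. Rps6-ps4 was listed at a mean of 743 FPKM, with a range of 518 to 1012 FPKM over the libraries, while Rps6 ranged from 5.31 to 20.5 FPKM. Summed, the Rps6 and Rps6-ps4 levels gave 786 ± 55.2 FPKM for A0, 774 ± 33.9 for A10, 658 ± 56.0 for A50, 897 ± 109 for B0, 730 ± 120 for BA10 and 698 ± 150 for BA50 (SD, n = 3). The sum stood within the range of the abundant members, and the level listed for Rps6 alone is uncertain.

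Rpl34 showed the same picture at 37.4 FPKM beside Rpl34-ps1, identical over 99.4% of the coding sequence, at 519 FPKM. Rpl21 had a mean of 208 FPKM beside Gm10045 at 130 FPKM and BC004004 at 36.6 FPKM, both 98.6% identical to it. The coding sequence of Rpl29 matched, on the opposite strand, a transcript of Uimc1, which was at 15.2 FPKM. Rpl10 had 9 annotated copies at 95% identity or more, and the copy listed in the table, Gm5621, was at 0.147 FPKM. Rpl39 had 9 such annotated copies and Rpl36a 6, with none of them listed in the table. How the authors' counting divided reads among such copies is not given, so the levels of Rpl10, Rpl29, Rpl34 and Rps6 are uncertain. Other members also had such annotated copies, among them Rps2 with 18, Rpl15 with 12, Rpl3 and Rps28 with 7 each and Rpl26 with 6. The levels of these genes, of Rpl39, of Rpl36a and of Rps18, which failed the minimum, may be affected in the same way. So may ratios taken to Rpl39 and Rpl36a.

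Within groups, most members repeated well. The median over members of the within-group SD was 0.20 on the log2 scale, against 0.21 for all tested genes, and 5 members had an SD above 0.5. Besides Rpl10 these were Rps28 with an SD of 2.07, Rpl26 with 1.78, Rps2 with 1.44 and Rpl3 with 0.97. They are treated first because they could set any group mean. Rps28, Rpl26, Rps2 and Rpl3 have annotated copies too, and the part of reads shared with those copies was not tested.

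Rps28, a small-subunit protein near the messenger path, read 289, 613 and 109 FPKM in A0, 237, 120 and 675 in A10, and 262, 39.5 and 259 in A50, for replicates 1 to 3. With busulfan it read 384, 41.0 and 245 FPKM in B0, 230, 3.75 and 218 in BA10, and 289, 11.1 and 272 in BA50. The low libraries were in all 6 groups and spanned a range from 3.75 to 120 FPKM, so that every group overlapped every other.

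Rpl26, a protein of the exit tunnel rim, read 325, 372 and 114 FPKM in A0, 311, 51.2 and 405 in A10, 23.3, 19.8 and 337 in A50, 138, 37.1 and 19.4 in B0, 28.2, 314 and 330 in BA10, and 57.6, 16.9 and 336 in BA50. The libraries of a group again differed widely, and some of the low ones, such as A0 replicate 3 and A10 replicate 2, were low for Rps28 too, while BA10 replicate 2, the lowest for Rps28, was at 314 FPKM. Rps2, a protein at the entry of the messenger channel, was 75.3 to 91.7 FPKM in the 4 libraries that stood apart and 5.89 to 21.3 FPKM in the other 14. Rpl3, a core protein of the large subunit, was 312 to 398 FPKM in those 4 libraries and 53.05 to 160 FPKM in the other 14. For Rps2 and Rpl3 the libraries above the rest were thus the same 4, from 4 groups.

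**Figure D2:**
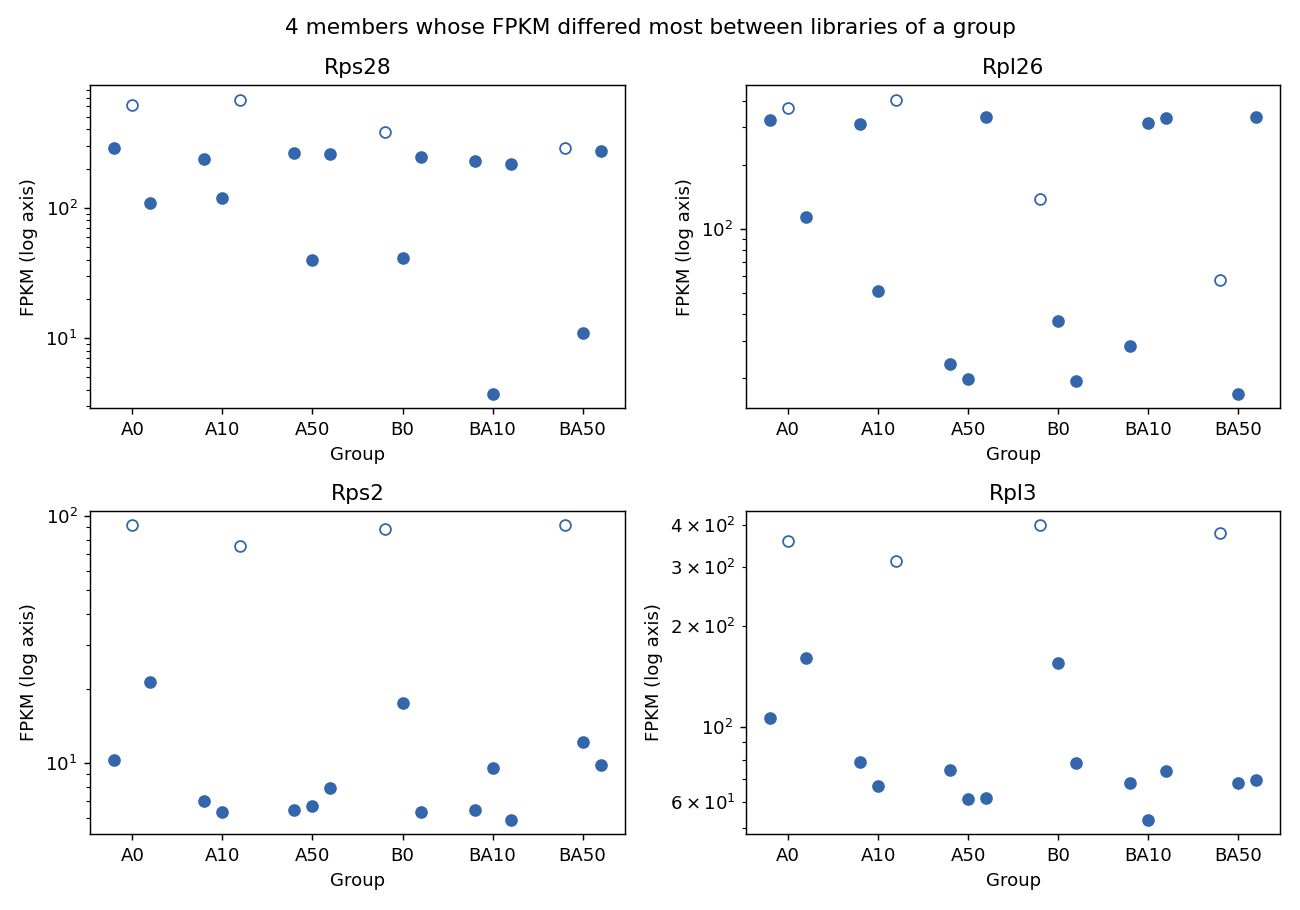
FPKM on log axes for Rps28, Rpl26, Rps2 and Rpl3 in each library, by group, with open circles for the 4 libraries that stood apart. Rps2 and Rpl3 are high in the open circles alone, whereas Rps28 and Rpl26 differ widely within every group.

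As a whole, the members held between 5.63% and 9.57% of the summed FPKM of a library. In A0 the share was 7.51, 8.37 and 7.19% in replicates 1 to 3, in A10 7.14, 7.49 and 7.53%, and in A50 6.80, 6.09 and 6.52%. In B0 it was 9.57, 7.58 and 7.78%, in BA10 7.50, 5.97 and 7.48%, and in BA50 8.28, 5.63 and 7.49%. The 3 A50 libraries lay below all A0 and A10 libraries, and the 3 B0 libraries lay above all A10, A50 and BA10 libraries. The other pairs of groups overlapped.

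The mean share was 7.69% ± 0.609 for A0, 7.38% ± 0.212 for A10, 6.47% ± 0.356 for A50, 8.31% ± 1.10 for B0, 6.99% ± 0.877 for BA10 and 7.13% ± 1.36 for BA50 (SD, n = 3). Without the 4 libraries the means of the groups they belong to were 7.35% in A0, 7.31% in A10, 7.68% in B0 and 6.56% in BA50. The highest library of all, B0 replicate 1 at 9.57%, and the highest of A0 and BA50 were among those 4. In bulk tissue, fewer cells of a type and less RNA per cell cannot be told apart.

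**Figure D3:**
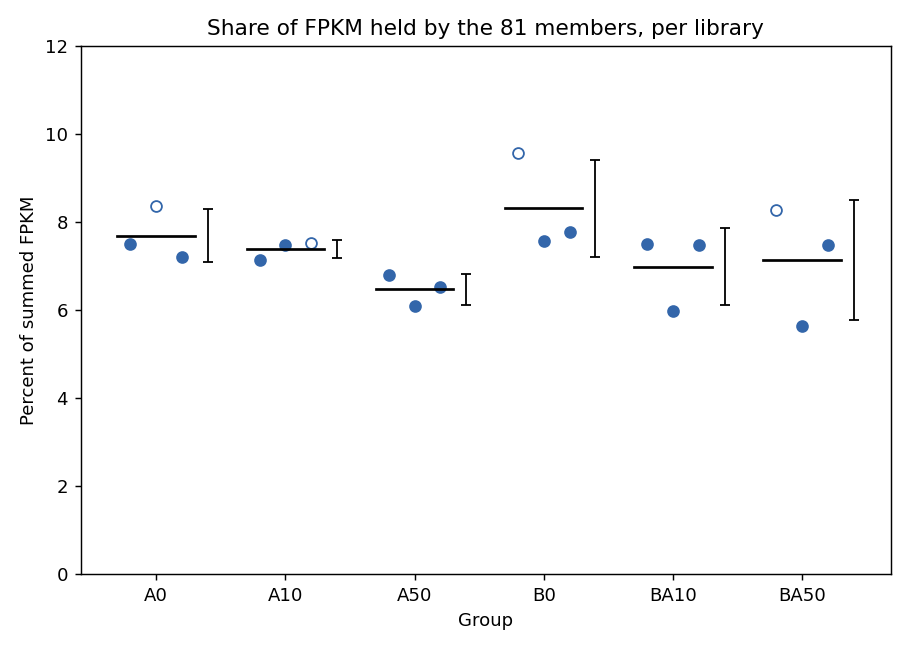
Percent of summed FPKM held by the 81 members in each library, by group, with a line for the group mean, a bar for the SD (n = 3) and open circles for the 4 libraries that stood apart. A50 sits between 6.09 and 6.80%, below A0 and A10; B0 replicate 1 at 9.57% is the highest library.

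Busulfan alone was compared with no treatment first (B0 against A0). The members were slightly higher in B0: their median log2 difference, taken on log2(FPKM + 1), was 0.16, against -0.04 over all tested genes, and 71 of 81 were positive. No member passed an adjusted p of 0.05 by limma with Benjamini-Hochberg adjustment over all 15790 genes, whereas 1.47% of all genes were called higher and 12.3% lower. At an unadjusted p of 0.05 there was 1 member on each side, where 5.57% and 19.3% of all genes were higher and lower, and by a stricter rule (adjusted p of at most 0.001 and a log2 difference of at least 1) there was none among the 81, where 2.54% of all genes passed. The B0 and A0 libraries did not overlap for 11 members higher in B0 and for 1 lower, where 10.5% and 22.7% of all genes were so separated. Large and small subunits had the same median of 0.16.

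Among members whose groups did not overlap, the widest differences were those of 3 X-linked members. Rps4x, a small-subunit protein, read 495, 574 and 497 FPKM in A0 and 815, 594 and 628 in B0, a log2 difference of 0.37 (SE 0.21, adjusted p = 0.302, limma). Rpl39 read 405, 457 and 399 FPKM in A0 and 594, 497 and 529 in B0, a difference of 0.36 (SE 0.18, adjusted p = 0.240, limma). Rpl36a, a protein of the exit site for spent transfer RNA, differed by 0.30 (SE 0.18, adjusted p = 0.362, limma). The 4 X-linked members were all positive, with a median of 0.33, and none of the 4 passed the test; without the 4 libraries that stood apart the median was 0.27 and Rpl10 was negative at -0.13. The 1 member below A0 without overlap was Rpl29, at -0.16 (SE 0.15, adjusted p = 0.597, limma).

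Without the 4 libraries the median of the members in B0 against A0 was 0.09. That fit kept 2 libraries of A0 and 2 of B0, a choice made after the values were seen. In it 1 member passed, Rpl10l at -1.04 (SE 0.30, adjusted p = 0.0405, limma), where 13% of all genes were called lower. After quantile normalization, which gives every library the same distribution of values, the median of the members was 0.0018.

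With AOS at 10 µg/mL and no busulfan (A10 against A0) the members were at the level of the control. The median difference was -0.03, against -0.06 for all genes, and 31 members were positive and 50 negative. None of the 81 members passed an adjusted p of 0.05 by limma or an unadjusted p of 0.05, where 0% of all genes passed after adjustment and 4.51% and 10.7% before it, higher and lower. The 1 member without overlap was Rpl10l, higher in A10, where 7.81% of all genes were higher without overlap. The median of the members without the 4 libraries was -0.0033.

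With 50 µg/mL (A50 against A0, which shares the A0 libraries with the other contrasts of this arm) most members were lower. The median difference was -0.25 against -0.06 for all genes, 78 of 81 members were negative, and the A50 libraries lay below every A0 library for 56 members and above for 2. Of all genes 23.2% were lower and 17.6% higher without overlap. By limma none of the 81 members passed after adjustment, where 0% of all genes did; before adjustment 9 members were lower and 1 higher, where 5.8% and 9.85% of all genes were. The large and small subunits were alike, with medians of -0.26 and -0.25.

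The stalk genes shared in this difference unequally. Rplp1 read 952, 1218 and 928 FPKM in A0 and 758, 705 and 778 in A50, a log2 difference of -0.46 (SE 0.19, adjusted p = 0.292, limma). Rplp2 differed by -0.31 and Rplp0 by -0.08, and the libraries of Rplp0 overlapped. Rpl5 and Rpl11, which with 5S RNA can bind the p53 regulator MDM2, differed by -0.25 and -0.18, and Rps27a, made as a fusion with ubiquitin, by -0.28; in all 3 the groups did not overlap, and no adjusted p of these genes was under 0.05.

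The widest negative differences without overlap were those of Rps2 at -1.84 (SE 1.07, adjusted p = 0.380, limma), Rpl3 at -1.47 (SE 0.72, adjusted p = 0.335, limma) and Rpl35a at -0.58 (SE 0.31, adjusted p = 0.357, limma). Rpl35a, a protein mutated in Diamond-Blackfan anaemia, read 202, 341 and 213 FPKM in A0 and 177, 138 and 182 in A50. In all 3 genes the highest A0 library was replicate 2, 1 of the 4 that stood apart. Without those 4 libraries the differences were -0.99, -0.99 and -0.34. The median of the members was then -0.20, and 78 of 81 were still negative.

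The 2 members above every A0 library in A50 were the germ-cell paralogs Rpl10l and Rpl39l. Rpl10l differed by 0.99 (SE 0.35, adjusted p = 0.248, limma) and Rpl39l by 0.54 (SE 0.27, adjusted p = 0.340, limma).

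After busulfan, AOS at 10 µg/mL (BA10 against B0) again came with lower members. The median difference was -0.27, against -0.03 for all genes, and 75 of 81 were negative. None of the 81 members passed after adjustment by limma, where 0% of all genes were called higher and 0.0253% lower; before adjustment 11 members were lower and 0 higher, where 3.17% and 1.89% of all genes were. For 22 members the BA10 libraries lay below every B0 library and for 0 above, where 7.75% and 3.64% of all genes did. The widest were Rpl3 at -1.38 (SE 0.72), Rpl36a at -0.42 (SE 0.18) and Rpl39 at -0.38 (SE 0.18), all with an adjusted p of 0.749 by limma.

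These values rest in good part on B0 replicate 1, the library with the highest share. Without it the median was -0.14, the value also found without all 4 libraries.

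At 50 µg/mL after busulfan (BA50 against B0, with the same B0 libraries) the median was -0.20, against -0.04 for all genes, and 72 of 81 were negative. By limma none of the 81 members passed, where 0.00633% of all genes were called higher and 0.0887% lower. Before adjustment 14 members were lower and 2 higher, where 11.6% and 12.7% of all genes were. For 7 members BA50 lay below B0 without overlap and for 1 above, where 13.5% and 11.2% of all genes did. BA50 was the most uneven group, and without BA50 replicate 2 the median was -0.04. It was -0.18 without the 4 libraries.

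The lowest of the members without overlap were Rpl39 at -0.55 (SE 0.18, adjusted p = 0.120, limma), Rpl36a at -0.52 (SE 0.18, adjusted p = 0.133, limma) and Rps3a1 at -0.45 (SE 0.18, adjusted p = 0.159, limma). Rpl39 read 594, 497 and 529 FPKM in B0 and 457, 267 and 410 in BA50. Rps3a1, a protein of the small subunit near the messenger exit, read 712, 701 and 739 FPKM in B0 and 522, 422 and 660 in BA50. Rpl29 was the 1 member above, at 0.26 (SE 0.15, adjusted p = 0.294, limma). Without the 4 libraries, which left 2 libraries in B0 and 2 in BA50, 2 members passed. They were Rpl10l at 1.21 (SE 0.30, adjusted p = 0.0346, limma) and Rpl39l at 0.98 (SE 0.27, adjusted p = 0.0418, limma). In that fit 7.5% of all genes were called higher.

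**Figure D4:**
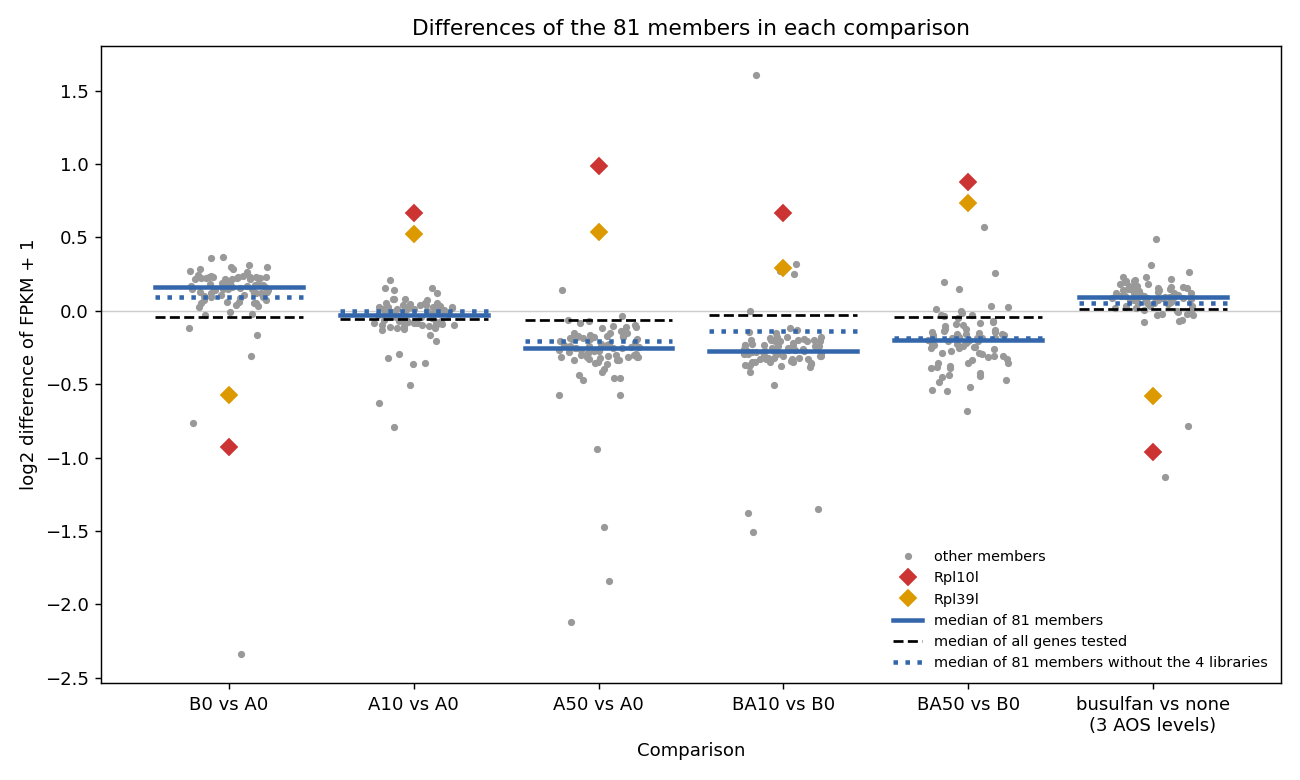
Differences in log2(FPKM + 1) for each member in 5 contrasts of groups and in busulfan against none averaged over 3 AOS levels, with lines for the median of the 81 members (solid), of the members without the 4 libraries (dotted) and of all tested genes (dashed). The median of the members lies below the dashed line in A50, BA10 and BA50, and Rpl10l and Rpl39l lie on the opposite side of the bulk of members in each contrast but A10 against A0, where the bulk is near 0.

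The difference between the AOS contrasts of testes with and without busulfan was tested as an interaction for each member, and none of the 81 members passed after adjustment by limma at 10 or at 50 µg/mL, where 0% of all genes did. Before adjustment 0 members passed at 10 µg/mL, where 1.8% of all genes were positive and 2.17% negative, and 1 at 50 µg/mL, where 2.93% and 3.36% of all genes were. The median interaction of the members was -0.24 at 10 µg/mL and 0.05 at 50 µg/mL, and without the 4 libraries -0.14 and -0.02.

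Averaged over the 3 AOS levels, 9 libraries with busulfan against 9 without, the members as a set hardly moved. The median was 0.10, against 0.01 for all tested genes, with 69 of 81 positive, and 0.05 without the 4 libraries. By limma 2 members rose and 2 fell, where 13.3% of all genes were called higher and 24.8% lower. Before adjustment 8 members were higher and 2 lower, where 19.4% and 28% of all genes were, and by the stricter rule 0 of the 81 passed, where 3.61% of all genes did. The count rests on BA50 replicate 2 and BA10 replicate 2. Without the former 13 members rose and 2 fell, where 14.9% and 24.7% of all genes did. Without the latter 6 rose and 2 fell, where 13.7% and 24.9% of all genes did.

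The members that rose were Rpl15 and Rps27l. Rpl15, a core protein of the large subunit, had a lowest, median and highest value of 30.8, 35.6 and 41.5 FPKM in the 9 libraries without busulfan and of 35.0, 44.0 and 54.6 in the 9 with it. The ranges overlapped, and the difference was 0.31 (SE 0.08, adjusted p = 0.00884, limma). The level of Rpl15 may be affected by reads shared with its annotated copies, as given above. Rps27l, a copy of Rps27 that is induced by p53, had 126, 144 and 156 FPKM without and 142, 167 and 185 with busulfan. It rose by 0.20 (SE 0.06, adjusted p = 0.0165, limma), and its adjusted p was 0.0939 without the 4 libraries.

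The members that fell were Rpl10l and Rpl39l. Rpl10l read 47.2, 30.9 and 56.5 FPKM in A0, 67.5, 64.8 and 77.8 in A10, and 80.1, 90.6 and 91.7 in A50. With busulfan it read 18.8, 36.3 and 16.5 FPKM in B0, 28.3, 46.1 and 36.2 in BA10, and 21.8, 57.8 and 58.7 in BA50. At 10 and at 50 µg/mL every library with busulfan lay below every library without it, and at 0 µg/mL the groups overlapped through B0 replicate 2. The difference over the 3 levels was -0.96 (SE 0.20, adjusted p = 0.0016, limma), and -0.82 (SE 0.16, adjusted p = 0.00251, limma) without the 4 libraries.

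Rpl39l read 103, 75.4 and 96.5 FPKM in A0, 95.9, 120 and 196 in A10, and 141, 124 and 133 in A50. With busulfan it read 65.5, 82.4 and 41.7 FPKM in B0, 63.8, 94.4 and 69.5 in BA10, and 77.7, 118 and 116 in BA50. At 10 and 50 µg/mL the groups did not overlap, and at 0 µg/mL they did. It fell by 0.58 on the log2 scale (SE 0.16, adjusted p = 0.00904, limma), and without the 4 libraries by 0.48 (SE 0.15, adjusted p = 0.0251, limma).

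Neither parent passed the test. Rpl39 had a lowest, median and highest value of 270, 381 and 457 FPKM in the 9 libraries without busulfan and of 267, 457 and 594 FPKM with it, a difference of 0.23 (SE 0.10, adjusted p = 0.0916, limma). Rpl10 had 0.73, 2.84 and 5.64 FPKM without and 2.07, 4.71 and 7.14 FPKM with busulfan, a difference of 0.49 (SE 0.23, adjusted p = 0.111, limma), at a level that is uncertain for the reason given above.

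**Figure D5:**
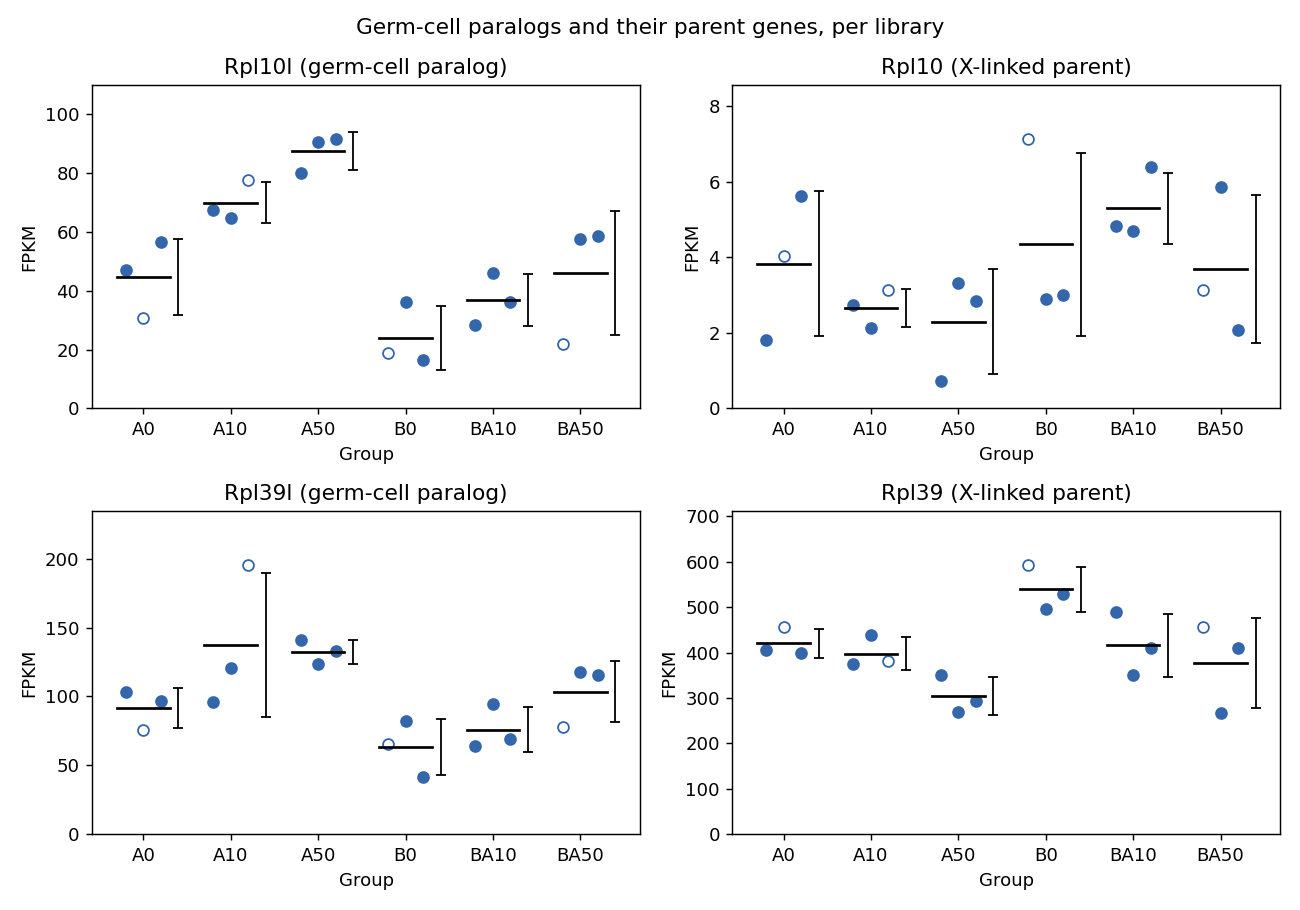
FPKM of Rpl10l and Rpl39l, the autosomal germ-cell paralogs, and of their X-linked parents Rpl10 and Rpl39 in each library, by group, with a line for the mean, a bar for the SD (n = 3) and open circles for the 4 libraries that stood apart. Rpl10l is 64.8 to 91.7 FPKM in A10 and A50 and 21.8 to 58.7 FPKM in BA10 and BA50, and Rpl10 is at most 7.14 FPKM in any library.

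The ratio of a paralog to its parent sets the pair side by side within a library. For Rpl39l the median was 24.2% of Rpl39 for A0, 27.4% for A10, 45.1% for A50, 11.0% for B0, 17.0% for BA10 and 28.2% for BA50. The range was 16.5 to 25.5% in A0 and 40.3 to 45.8% in A50, without overlap, and 7.89 to 16.6% in B0 and 17.0 to 44.0% in BA50, also without overlap. At 3 libraries against 3 the exact permutation test gives 0.1 at the least, and both contrasts gave 0.1. The ranges of B0 and A0 overlapped by a narrow margin, with the highest B0 library at 16.6%.

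Over all libraries the log2 ratio of Rpl39l to Rpl39 was lower with busulfan by 0.81, from -1.66 to -2.47 in the mean of 9 libraries each. The exact two-sided permutation test, with labels exchanged within each AOS level over 8000 arrangements, gave p = 0.0035 and an adjusted p of 0.0105 over the 6 pairs tested. Without the 4 libraries the ratio differed by -0.65, with an adjusted p of 0.065 by the same exact test. For Rpl10l and Rpl10 the ratio differed by -1.45 (exact permutation p = 0.0015, adjusted p = 0.009), and by -1.27 without the 4 libraries (exact adjusted p = 0.03). As listed, Rpl10l was at 263% of Rpl10 or more in each of the 18 libraries, but the level of Rpl10 is uncertain and so is this ratio. Reads shared with copies of Rpl39 may likewise affect the ratio of Rpl39l, and those of Rpl36a the ratio of Rpl36al below.

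Of the other 4 pairs, Rpl36al fell against Rpl36a, and 3 gave no call. Rpl36al, an autosomal copy of the X-linked Rpl36a that is expressed in many tissues, was at 62.9 to 101% of its parent without busulfan and 56.0 to 96.7% with it. The log2 ratio fell by 0.23 (exact permutation adjusted p = 0.0285), and without the 4 libraries the difference was -0.14 with an exact adjusted p of 0.117. Rpl36al itself was 250 to 335 FPKM without and 215 to 326 FPKM with busulfan. Rps27l against Rps27 differed by 0.18 (exact permutation adjusted p = 0.0544).

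Rpl22l1 and Rpl22 were near parity, with a median ratio of 114% without and 125% with busulfan, and differed by 0.08 (exact permutation adjusted p = 0.47). Rpl7l1, at 5.03% of Rpl7 on average without busulfan and 4.85% with it, differed by -0.04 (exact permutation adjusted p = 0.72). Rpl3l was not tested because 1 FPKM was not reached in 3 libraries, and its highest level relative to Rpl3 was 0.716%.

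The sum of 8 spermatocyte marker genes was lower in every library with busulfan than in every library without it. The summed FPKM of 8 spermatocyte genes, all above 0 in every group, had a lowest, median and highest value of 235, 273 and 280 in A0, 297, 313 and 331 in A10, and 335, 353 and 362 in A50. With busulfan the values were 36.9, 38.3 and 58.1 in B0, 53.6, 56.6 and 77.0 in BA10, and 40.3, 69.8 and 75.6 in BA50. All 8 genes fell with busulfan over the 3 levels by limma, with a median of -2.47, among them Sycp3 of the synaptonemal complex at -3.28 (SE 0.10) and Hormad1, a protein of unpaired chromosome axes, at -3.74 (SE 0.12). The part of these cells in the difference of Rpl10l and Rpl39l was not tested.

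Of the other germ cell markers, spermatogonium genes were lower in part and spermatid genes were not called. Of 7 tested spermatogonium genes 4 fell with busulfan over the 3 levels by limma, with a median of -0.58, among them Stra8, a gene induced by retinoic acid before meiosis (log2 difference -4.58, SE 0.12). All 9 spermatid genes were positive, with a median of 0.39, and 0 passed by limma; 2 of the 9 rose without the 4 libraries. The 9 spermatid genes summed to 2505 to 4428 FPKM in A0 and to 2403 to 3497 in B0, and to 5152 to 11147 in BA50; 0 of the 9 passed in B0 against A0 by limma. The 8 spermatogonium genes summed to 114 to 171 FPKM in A0, 53.1 to 71.5 in B0 and 78.5 to 108 in BA50. Uchl1 made up most of the sum in these groups, with means of 75.95 FPKM in A0, 48.05 in B0 and 86.54 in BA50. The higher sum in BA50 than in B0 was therefore not shared by the list. In BA50 against B0, 4 of the 7 tested genes were positive and 3 negative, with a median of 0.014, and 0 passed by limma.

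Of the somatic markers, sums of 6 Sertoli cell genes, all above 0, overlapped between A0 at 2993 to 4141 and B0 at 3018 to 4327 FPKM, but the A10 libraries at 1015 to 2694 FPKM lay below every A0 library. Sums of 4 macrophage genes were 122 to 136 FPKM in A50, below A0 at 151 to 194 FPKM. Sums of 5 Leydig cell genes were 934 to 1656 FPKM in B0 and 717 to 1029 FPKM in A0; all 5 genes were positive with busulfan over the 3 levels and 1 rose by limma, Star, which carries cholesterol into mitochondria for steroid synthesis, by 0.75 (SE 0.12). The part of these cells in the contrasts was not tested. Sums of 5 fat cell genes were 37.1 to 237 FPKM in B0 and at most 15.7 FPKM in the other groups, and their part in the contrasts with B0 was not tested.

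Other genes of translation were read beside the members. The 78 mitochondrial ribosomal protein genes, which serve the separate ribosome of mitochondria, had a median of -0.08 with busulfan over the 3 levels, with 6 higher and 22 lower by limma, where 13.3% and 24.8% of all genes were. Against A0 their medians were -0.07 at 10 µg/mL and -0.08 at 50 µg/mL, and against B0 -0.11 and -0.03.

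A further list held 16 genes, mostly translation factors, taken as having messages with the same pyrimidine-rich start. That start was not examined here. Of the 16, 1 rose and 2 fell with busulfan over the 3 levels, where 13.3% and 24.8% of all genes did, with a median of 0.00. Tpt1, the translationally controlled tumour protein, rose by 0.26 (SE 0.10, adjusted p = 0.0437, limma). Pabpc1, the poly(A)-binding protein, fell by 0.56 (SE 0.08, adjusted p = 5.17e-05, limma) and Eif3e, a subunit of initiation factor 3, by 0.19 (SE 0.06, adjusted p = 0.0168, limma). In A50 against A0 their median was -0.03 and in BA10 against B0 -0.15, with 0 of 16 called in either.

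Of 32 genes for ribosome assembly, 1 rose and 12 fell with busulfan, where 13.3% and 24.8% of all genes did, with a median of -0.12 against 0.01 for all genes. The largest fall was that of Mdn1, an ATPase that strips assembly factors from the large subunit, by 1.27 (SE 0.07, adjusted p = 2.93e-09, limma), from group means of 6.59 to 7.63 FPKM without busulfan to 2.11 to 2.56 with it. Nmd3, the export adaptor of the large subunit, fell by 0.47 (SE 0.05, adjusted p = 2.69e-06, limma), and Nhp2, a protein of small nucleolar particles, rose by 0.28 (SE 0.07, adjusted p = 0.00813, limma).

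Of 8 tested genes that control ribosomal protein messages, 2 rose and 2 fell with busulfan, against those shares of all genes. Larp1, which binds the pyrimidine-rich start and holds those messages, fell by 0.43 (SE 0.05, adjusted p = 5.62e-06, limma), and Maf1, a repressor of RNA polymerase III, by 0.15 (SE 0.05, adjusted p = 0.0431, limma). Eif4ebp1, an mTOR target that blocks cap-dependent initiation, rose by 0.37 (SE 0.09, adjusted p = 0.00442, limma), and Myc, a transcription factor that drives ribosome production, by 0.44 (SE 0.12, adjusted p = 0.00714, limma). The level of a message gives no measure of how much of it is translated.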

How the data were processed

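RNA of 18 cultured testis libraries was sequenced, 3 in each of 6 groups. By the study's methods, messenger RNA was enriched from total RNA on oligo(dT) beads. The authors deposited 1 table of FPKM values per gene and library with 2 decimals and no counts. The submitters' processing notes name HISAT, Bowtie2, RSEM and GRCm38.p5, while the study's methods name another aligner and RPKM; which made the table is not given in the sources used here. Reads shared between a gene and its copies may have been split or given to 1 of them. Gene IDs were matched to symbols by RefSeq (GRCm38.p6): of 22657 genes 20811 had a number and 20656 of these a symbol. Sequences came from GENCODE M21, in which 83 of 84 named genes had a coding sequence.

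Genes at 1 FPKM or more in at least 3 libraries were fitted as log2(FPKM + 1) with limma 3.58.1 (R 4.3.3), all 6 groups in 1 fit with a mean-variance trend (12 residual and 2.56 prior degrees of freedom), with Benjamini-Hochberg adjustment over 15790 genes. Fold changes of low genes are understated on this scale. Scripts were tested on simulated data. Paralog ratios were tested by exact permutation within AOS levels (smallest p = 0.00025). P-values measure the spread between these libraries, which may be technical.

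Named were all paralogs and parents, the 5 highest and 5 lowest members, the 3 widest differences without overlap in each direction and contrast, members with an adjusted p under 0.05, and fixed functional groups. The members and lists were chosen with earlier results of these data known. Alternatives were the pseudocount (0.1), filters, scaling, variance trend, fits on compared groups alone, a replicate block, a narrower and a wider member list, and each library left out.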

Additional observations from a re-analysis of the deposited data

Results flagged for a closer look

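At 10 µg/mL of AOS, 2 of the 81 members had every library on one side of the control mean without busulfan and on the opposite side with it. How many of all tested genes met the same rule was not counted, so no background share can be set beside these 2. Rpl10 differed by -0.32 on the log2 scale in A10 against A0 and by 0.32 in BA10 against B0, so that the arms differed by 0.64; the limma interaction had an adjusted p of 0.915. Rps27 differed by 0.12 and by -0.29, so that the arms differed by -0.41; the limma interaction had an adjusted p of 0.910. Rpl10 was read at a mean of 3.69 FPKM.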

How the results depend on the processing

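Counts of members called and their median differences held under most alternatives. After quantile normalization the median in B0 against A0 was 0.0018. Without the 4 libraries that stood apart, an alternative chosen after seeing the data, 1 member was called in B0 against A0 and 2 in BA50 against B0, and the log2 ratio of Rpl39l to Rpl39 differed by -0.65 with busulfan, no longer past the threshold. Under the stricter rule of an adjusted p of at most 0.001 and a log2 difference of at least 1, 0 members were called with busulfan. With each library left out in turn, 0 to 1 members were called in B0 against A0 (1 without B0 replicate 2 or BA50 replicate 1). In BA50 against B0 the count ranged from 0 to 5 (5 without BA50 replicate 1). With busulfan over the 3 levels it ranged from 4 to 15 (15 without BA50 replicate 2 and 8 without BA10 replicate 2). In the other contrasts it was 0 throughout. The shares of all genes in the fits without BA50 replicate 2 or BA10 replicate 2 are given above. For the other fits with a library left out they are not given here. The medians ranged from 0.04 to 0.24 in B0 against A0, the lowest without B0 replicate 1, from -0.07 to 0.03 in A10, from -0.29 to -0.20 in A50, from -0.34 to -0.14 in BA10, from -0.32 to -0.04 in BA50 and from 0.06 to 0.14 with busulfan. The ratio differences ranged from -1.62 to -1.29 for Rpl10l and from -0.93 to -0.70 for Rpl39l. Rps27l lost its call after rescaling each library to the same sum (adjusted p = 0.0623, limma) and after quantile normalization (0.059), and the ratio of Rps27l to Rps27 was called after the latter (exact permutation adjusted p = 0.0015) and without A10 replicate 2, B0 replicate 1 or BA50 replicate 3 (0.048, 0.02 and 0.04). Rpl36al lost its ratio call without any 1 of 5 libraries (exact permutation adjusted p up to 0.0821). The cause of these changes was not tested.

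Same-numbered libraries went together in BA50 against B0, where all 3 pairs had a correlation of deviations over 0.1 (0.14 to 0.56), and not in the other contrasts (6 of 15 pairs in all, from -0.43). The value of 0.56 was that of B0 replicate 1 and BA50 replicate 1, both among the 4 libraries that stood apart. Deviations from a group mean cancel within the group, so the 3 correlations are not independent. Whether the replicate numbers pair samples is not given by the labels. With the replicate block 0 members were called in BA50 against B0 and 4 with busulfan, and the exact paired test gave an adjusted p of 0.0312 for Rpl10l, Rpl39l and Rpl36al alike. A ratio of Rps4l to Rps4x was planned and not run, because Rps4l is annotated as a transcribed pseudogene and has no value here. With FPKM alone, the precision that depth gives is unknown.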
